A study of Mus musculus with 12 samples.

Results

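The keratin genes were followed in mouse lung tumours that either carried or lacked Dnmt3a, a de novo DNA methyltransferase. Members were all probes whose gene name in the array files began with Krt and a digit, older hyphenated names included and keratin-associated proteins left out. They came to 50 probes of 42 genes, out of 41174 probes and 21574 named genes on the array. A gene was kept for testing where 1 of its probes was well above background for the KO or for the WT RNA on at least 6 of 12 arrays. That left 41 keratin genes of 19921 genes. The cornea keratin Krt12 did not pass: 1 of its probes was well above background on 4 arrays for KO and 3 for WT RNA, and the other on 0.

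Per the labels, K-ras LSL-G12D mice of strain C57/129 were bred to conditional Dnmt3a mice and given a Cre adenovirus through the trachea or the nose at an age of 6 to 12 weeks. Tumours labelled KO were homozygous for the Dnmt3a deletion and those labelled WT had normal Dnmt3a, so both kinds carried the activated K-ras allele. Cre acts only in the cells that the virus reaches, and the RNA was of whole frozen tumours, stroma included. Each of 12 two-colour arrays set 1 KO RNA against 1 WT RNA. Cy5 marked the KO RNA on 6 arrays and Cy3 on 6, and values are given as the log2 ratio of KO over WT. The labelled ages and sexes form 4 combinations, called pairs A to D here, and ages are given as labelled, without a unit. Pair A (replicates 1 to 4, slide 1) had a KO animal of age 47.7 and a WT animal of 42.6, and pair B (replicates 5 to 8, slide 2) had ages 27 and 41.3. Pair C (replicates 9 and 10) had ages 27 and 47.6 with a female WT animal, pair D (replicates 11 and 12) had ages 29.1 and 37.3, both lay on slide 3, and every other animal was male. Dyes were swapped within pairs A and B only: the KO RNA was in Cy5 on both arrays of pair C and in Cy3 on both of pair D, so that a dye effect cannot be estimated within either. Pairs B and C have KO animals of the same labelled age, which may be 1 animal, in which case the pairs are not fully separate. The labels do not say whether the arrays of a pair held separate tumours, and a p-value therefore reflects spread among these arrays alone, which may be technical in part.

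Keratins are the intermediate filament proteins of epithelial cells. A filament is built from pairs of an acidic type I and a basic type II keratin, and each kind of epithelium makes its own set: Krt8 with Krt18, Krt7 and Krt19 in single-layered epithelia such as those of the lung, Krt5 with Krt14 in basal cells of layered epithelia, and Krt1 with Krt10 or Krt4 with Krt13 in the layers above them. Hair and the hair follicle use a further set. Keratin filaments are anchored to neighbouring cells through desmosomes and to the basement membrane through hemidesmosomes, and keratin patterns are used to tell tumour types apart.

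The study concerns a DNA methyltransferase, and the CG pairs, in capitals, are the bases it can methylate. Promoter windows are therefore shown for some of the members named below. They are the RefSeq sequences of 300 bases around the gene start on GRCm38.p6, 5′ to 3′ on the gene's strand, for 3 simple keratins whose ratios shared a sign on most arrays (Krt7, Krt8 and Krt18), for Krt23, and for the basal partners Krt5 and Krt14.
Krt7 (chr15:101412153-101412452, plus strand): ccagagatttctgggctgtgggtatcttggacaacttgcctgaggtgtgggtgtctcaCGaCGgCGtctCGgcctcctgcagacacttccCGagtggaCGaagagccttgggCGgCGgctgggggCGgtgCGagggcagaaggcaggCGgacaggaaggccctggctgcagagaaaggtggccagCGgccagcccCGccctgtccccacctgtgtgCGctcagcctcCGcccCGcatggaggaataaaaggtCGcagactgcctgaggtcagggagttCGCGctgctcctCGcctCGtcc
Krt8 (chr15:102004293-102004592, minus strand): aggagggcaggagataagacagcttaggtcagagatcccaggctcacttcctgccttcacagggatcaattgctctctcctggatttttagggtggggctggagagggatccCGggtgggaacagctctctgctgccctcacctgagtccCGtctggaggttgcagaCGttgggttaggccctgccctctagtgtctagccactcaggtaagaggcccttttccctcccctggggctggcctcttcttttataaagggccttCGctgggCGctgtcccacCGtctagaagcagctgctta
Krt18 (chr15:102027966-102028265, plus strand): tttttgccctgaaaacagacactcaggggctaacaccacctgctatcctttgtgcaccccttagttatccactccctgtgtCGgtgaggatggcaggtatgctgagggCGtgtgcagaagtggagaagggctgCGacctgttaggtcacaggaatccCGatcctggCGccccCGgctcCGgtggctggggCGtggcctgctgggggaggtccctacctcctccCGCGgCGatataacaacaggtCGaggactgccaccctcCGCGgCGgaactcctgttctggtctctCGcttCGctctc
Krt23 (chr11:99493071-99493370, minus strand): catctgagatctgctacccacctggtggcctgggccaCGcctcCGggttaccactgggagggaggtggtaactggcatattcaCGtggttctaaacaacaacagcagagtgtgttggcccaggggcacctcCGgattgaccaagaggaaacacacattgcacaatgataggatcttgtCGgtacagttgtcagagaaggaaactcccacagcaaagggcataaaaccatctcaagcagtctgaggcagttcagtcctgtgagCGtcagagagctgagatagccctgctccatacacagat
Krt5 (chr15:101712856-101713155, minus strand): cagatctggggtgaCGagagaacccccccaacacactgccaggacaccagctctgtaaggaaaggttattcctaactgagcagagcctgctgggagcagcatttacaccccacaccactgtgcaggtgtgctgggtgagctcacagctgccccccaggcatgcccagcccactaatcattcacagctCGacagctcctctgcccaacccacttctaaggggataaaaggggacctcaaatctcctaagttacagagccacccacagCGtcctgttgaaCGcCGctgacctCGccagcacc
Krt14 (chr11:100205981-100206280, minus strand): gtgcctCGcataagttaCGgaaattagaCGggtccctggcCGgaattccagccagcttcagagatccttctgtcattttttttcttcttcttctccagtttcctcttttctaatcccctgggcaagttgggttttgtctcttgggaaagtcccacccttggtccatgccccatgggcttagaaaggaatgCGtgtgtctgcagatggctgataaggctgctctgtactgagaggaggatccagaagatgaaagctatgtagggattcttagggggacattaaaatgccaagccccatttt

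The Krt7 window holds 21 CG pairs, more than 75.2% of all promoter windows, and the Krt18 window holds 17, more than 68.6%. The windows of Krt8, Krt23 and Krt5 hold 6 each and that of Krt14 holds 5. The RefSeq table had 29 windows for 28 of the keratin genes, with a median of 6 CG pairs (range 2 to 21), against a median of 7 over 32851 windows of 27025 genes. It had none for Krt17, the only keratin called below, or for Krt19 and Krt80. The motif TATAAA, sought on both strands, was in 16 of these 29 windows (55.2%) and in 13.6% of all windows. Krt8 was the printed window that held it. Methylation was not measured by these arrays, and the windows describe sequence only.

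The probe for Dnmt3a was lower in KO on 12 of 12 arrays, with a log2 ratio between -0.41 and -0.055 (median -0.17) and a fitted value of -0.21 ± 0.046 (SE, adjusted p = 0.0209 by limma). Whether that probe lies inside the deleted exons was not checked here. The share of probes well above background was 81.6% to 89.6% on slides 1 and 2 and between 59.0% and 72.2% on slide 3, and no keratin probe was saturated. The 6 epithelial and the 6 alveolar type 2 markers listed were well above background for both RNAs on all 12 arrays, with median log2 ratios of -0.038 and -0.034. In each list 1 marker was called (7.44% of all genes were, in either direction), Cldn3 at 0.57 and the type 2 marker Lamp3 at -0.78 (limma, adjusted p = 0.0478 and 0.0381). Of other cell types, all 6 endothelial markers were called lower in KO (3.94% of all genes; median log2 ratio -0.74), with a summed signal of 5497 to 7494 in KO and 8760 to 15120 in WT RNA. The fibroblast marker Lum was called higher (1.13) and the leukocyte marker Itgax lower (-0.54), with adjusted p-values of 0.0435 and 0.0483 by limma. Club cell markers varied most between arrays, with a median ratio from -5.55 on replicate 11 to 1.85 on replicate 12. In such bulk samples, fewer cells of a type and less RNA per cell cannot be told apart.

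Of the 41 keratin genes tested, 1 differed between KO and WT tumours at an adjusted p under 0.05, the basal keratin Krt17, which was higher in KO. Over all genes tested, 7.44% were called in either direction by that rule, with 3.51% called higher and 3.94% lower in KO. With each probe tested on its own, 5.72% of probes were called. A further 5 keratin genes (Krt14, Krt23, Krt80, Krt84 and Krt85) had an unadjusted p under 0.05, giving 6 of 41 in all where 22.6% of all genes had one. The ratio was above 0 for 14 keratin genes and below 0 for 27, with a median of -0.024 against -0.006 over all genes. It lay within 0.1 of 0 for 25 of 41, against 53.7% of all genes. An absolute log2 ratio of at least 0.5 was found for 4 keratin genes (Krt17, Krt20, Krt23 and Krt80), where 6.08% of all genes had one. Krt23 alone kept 1 sign on 11 or more arrays, where 7.38% of all genes did.

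**Figure D1:**
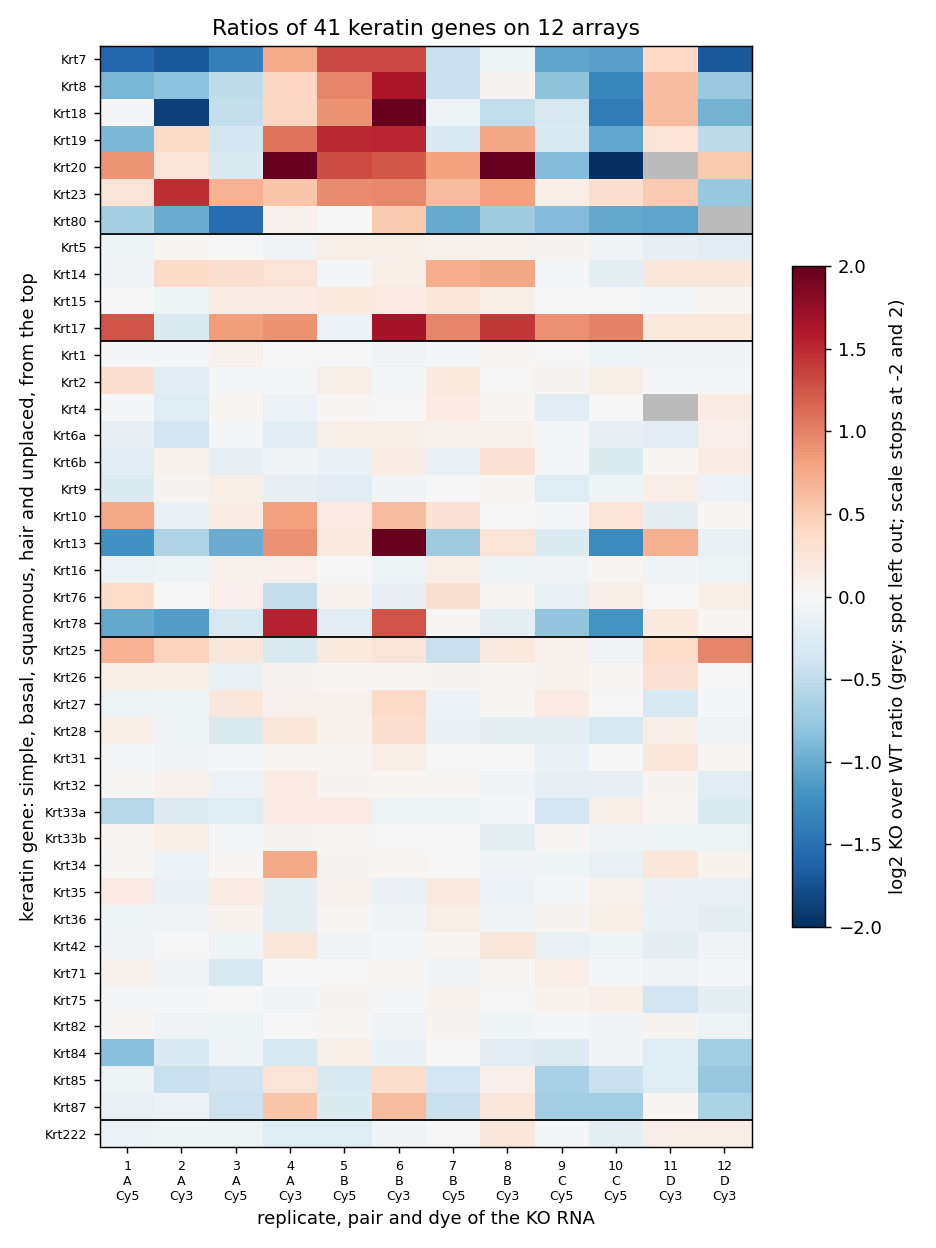
Log2 KO over WT ratio of the 41 tested keratin genes (rows, by group) on the 12 arrays (columns, with the pair and the dye of the KO RNA); red is higher and blue lower in KO, and grey marks spots left out as outliers. The 7 simple keratins and Krt13, Krt17 and Krt78 carry most of the colour, while the fitted ratios of 9 of 11 squamous and 13 of 18 hair keratins lie within 0.1 of 0.

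The 7 simple epithelial keratins were all well above background for both RNAs on 12 of 12 arrays. None was called, 3 had a ratio above 0 and 4 below, and the group's median was -0.14. Their ratios differed widely from array to array: the SD over arrays had a median of 0.89 (0.55 to 1.44), against a median of 0.29 over all genes tested.

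Krt8, the type II keratin of single-layered epithelia, ranged from -1.30 to 1.63 with a median array of -0.47. It was higher in KO on 5 arrays and lower on 7, so that the sign was not shared by the arrays, and the mean log2 signal was 16.32 ± 0.45 (SD, n = 12) in KO and 16.48 ± 0.61 in WT RNA. The fitted ratio was -0.17 ± 0.24 (SE; limma, adjusted p = 0.747), with a 95% interval from -0.70 to 0.36. Krt18, its type I partner, ranged from -1.86 to 2.21 with a median array of -0.21. It was higher in KO on 4 arrays and lower on 8, at a mean log2 signal of 17.18 ± 0.75 in KO and 17.30 ± 0.56 in WT RNA. The fitted ratio was -0.14 ± 0.33 (limma, adjusted p = 0.857; 95% interval from -0.86 to 0.58). The interval reaches beyond 0.5 on both sides of 0 for Krt18 and below 0 for Krt8, so that changes of that size were within the error of these arrays.

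Krt7, a type II keratin of glandular and airway epithelium that is used as a marker of lung adenocarcinoma, ranged from -1.68 to 1.32 with a median array of -0.75. It was higher in KO on replicates 4, 5, 6 and 11 and lower on the other 8, and its mean log2 signal was 16.35 ± 0.54 in KO and 16.78 ± 0.84 in WT RNA. This gave a fitted ratio of -0.45 ± 0.33 (limma, adjusted p = 0.48; 95% interval from -1.18 to 0.28). Krt19, a type I keratin of ducts and airways, ranged from -1.04 to 1.52 with a median array of -0.01. It was higher on 6 arrays and lower on 6, at a mean log2 signal of 14.15 ± 0.46 in KO and 13.97 ± 0.71 in WT RNA. Its fitted ratio came to 0.15 ± 0.23 (limma, adjusted p = 0.771; 95% interval from -0.36 to 0.66).

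**Figure D2:**
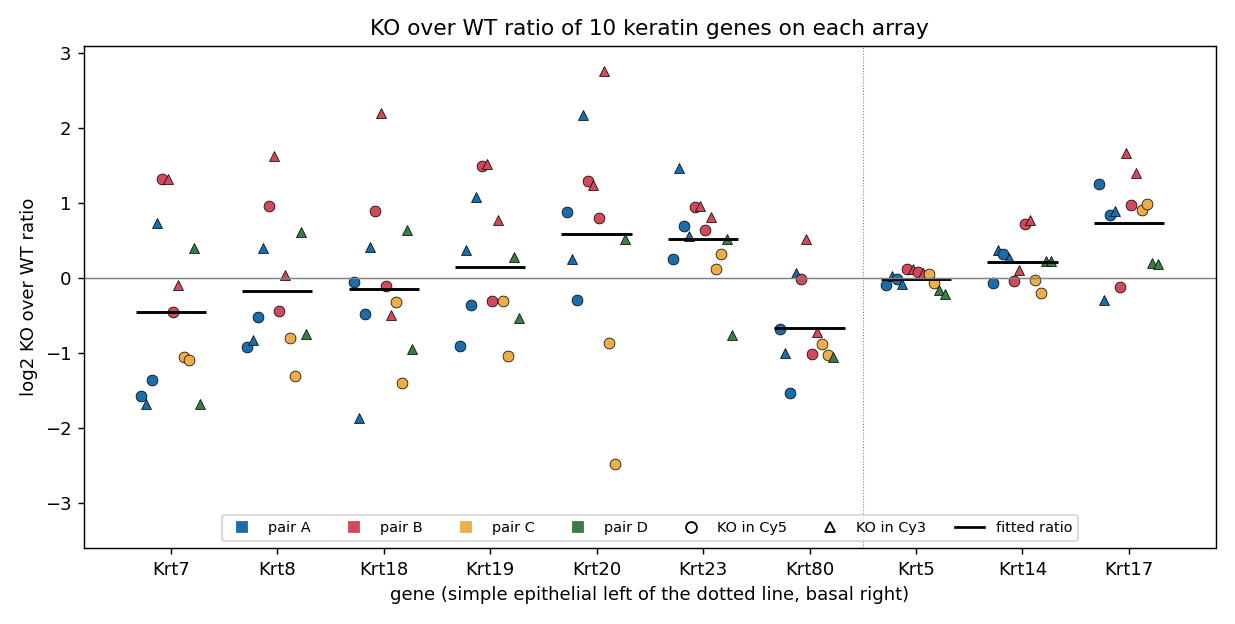
Log2 KO over WT ratio (vertical axis) of the 10 keratin genes given in full, with 1 point per array, coloured by pair and shaped by the dye of the KO RNA, and the fitted ratio as a line. Krt17 is above 0 on 10 arrays and Krt23 on 11, Krt80 is below 0 on 9 of 11, and Krt5 stays between -0.21 and 0.12.

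The ratios of Krt7, Krt8, Krt18 and Krt19 had the same sign on most arrays. Krt7 and Krt18 had the same sign on 12 of 12 arrays, and 0.0954% of the other genes tested shared the sign of Krt18 on all 12. Krt8 shared the sign of Krt18 on 11, where 0.924% of genes did so on 11 or 12. It shared that of Krt7 on 11 and of Krt19 on 11, and Krt19 shared that of Krt7 and of Krt18 on 10. Part of this agreement moved with the dye: the fitted dye term was -0.42 for Krt19 and -0.34 for Krt8, against -0.11 for Krt18. With the dye term removed from each array, Krt7 and Krt8 had the same sign on 12 of 12 arrays and Krt18 had that of each of them on 10 (2.48% of genes then shared the sign of Krt18 on 10 or more). Krt19 shared the sign of Krt7, Krt8 and Krt18 on 7 arrays each, against 10 or 11 before. By contrast Krt17 shared the sign of Krt18 on 4 arrays, and on 6 with the dye term removed.

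The median ratio of Krt7, Krt8, Krt18 and Krt19 was 1.57 on replicate 6, 1.14 on replicate 5, 0.58 on replicate 4 and 0.51 on replicate 11. On the other 8 arrays it lay between -1.25 and -0.019. Arrays of the same animals' labels therefore fell on both sides: within pair A, Krt7 was -1.57, -1.68 and -1.36 on replicates 1 to 3 and 0.74 on replicate 4. The 6 epithelial markers had an array median between -0.31 and 0.48, which on replicates 4, 5, 6 and 11 stood at -0.18, -0.091, 0.30 and 0.30. Single markers spread more widely, such as Cldn4, from -1.71 to 1.06 with an SD of 0.79. On replicates 4, 5, 6 and 11 the alveolar type 1 markers had medians of 1.64, -0.51, 0.047 and -0.077. The club cell markers stood at 0.80, 1.83, 0.83 and -5.55 on the same arrays. The part of these cell types in the keratin ratios was not tested.

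A second probe was present for Krt7 and for Krt8. Probes on 1 array share the RNA, labelling and hybridization, so their difference covers probe and spot error only. The pair of Krt8 probes had the same sign on 12 of 12 arrays, and their difference had an SD of 0.24 (largest 0.42), beside an SD over arrays of 0.89 and 0.98. The Krt7 probes had the same sign on 11 arrays, with an SD of 0.63 for the difference and of 1.15 and 1.51 over arrays. The second probes gave fitted ratios of -0.14 ± 0.24 for Krt8 and -0.58 ± 0.38 for Krt7.

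Krt23, a type I keratin described in gut and liver epithelium, ranged from -0.76 to 1.47 with a median array of 0.60 and was lower in KO on replicate 12 alone. Its mean log2 signal was 13.84 ± 0.30 in KO and 13.30 ± 0.52 in WT RNA, a fitted ratio of 0.53 ± 0.17, or 1.44-fold, with an adjusted p of 0.0775 by limma (95% interval from 0.16 to 0.89). Without replicate 12 the ratio was 0.67 and the adjusted p 0.00908. The call on Krt23 thus depended on that single array, and also on the random block: with the arrays taken as independent the adjusted p was 0.0412.

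Krt80, a type II keratin of many epithelia, was measured on 11 arrays, since its spot on replicate 12 was an outlier. It ranged from -1.53 to 0.53 with a median array of -0.87, lower in KO on 9 arrays and higher on replicates 4 and 6. The mean log2 signal was 7.88 ± 0.51 in KO and 8.54 ± 0.50 in WT RNA, and the fitted ratio was -0.66 ± 0.18 (limma, adjusted p = 0.055; 95% interval from -1.06 to -0.25). Without replicate 5 or without replicate 6 it passed, at -0.73 and an adjusted p of 0.0256, and at -0.77 and 0.0279. Krt80 was below 0 in all 4 pairs, at -0.78, -0.30, -0.68 and -1.31 in pairs A to D.

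Krt20, a type I keratin of intestinal lining cells, had the largest spread of all keratins, an SD of 1.44 over the 11 arrays that measured it. It ranged from -2.47 on replicate 10 to 2.76 on replicate 8 with a median array of 0.81, and was higher in KO on 8 arrays. The fitted ratio was 0.59 ± 0.37 (limma, adjusted p = 0.401; 95% interval from -0.24 to 1.41), and the dye term was -0.71. The pairs stood at 0.76, 1.53, -1.19 and 0.064, and both arrays of pair C had the KO RNA in Cy5. With the authors' deposited ratios Krt20 was at 0.28, with 1 mean per pair at 0.29, without pair B at 0.14, without pair C at 1.02 and in pairs A and B alone at 1.14.

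**Figure D3:**
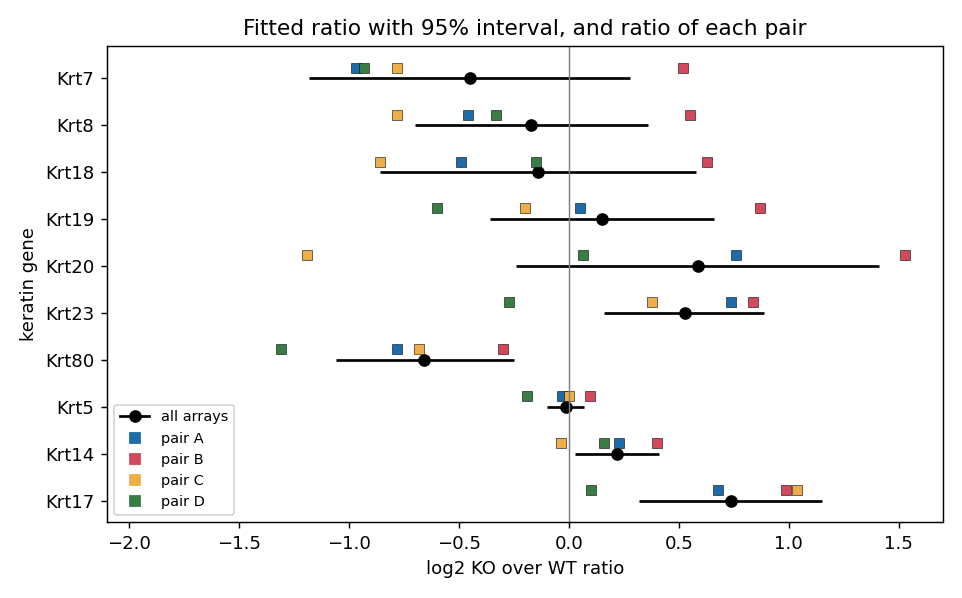
Fitted log2 KO over WT ratio over all arrays (black point) with its 95% interval (bar), and the ratio of each pair (coloured squares), for the 10 keratin genes given in full. The intervals of Krt17, Krt23, Krt14 and Krt80 leave out 0, and pair B lies above 0 for Krt7, Krt8, Krt18 and Krt19.

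The pairs were also compared directly, by an F test over the 4 pair ratios. No keratin gene passed at an adjusted p under 0.05 in limma, where 0.343% of all genes did. At an unadjusted p under 0.05 there were 3 of 41 (12.1% of all genes), namely Krt20 (p = 0.0347; adjusted p = 0.372), Krt75 of the hair follicle (p = 0.0448) and Krt5 (p = 0.0477). Pair B had ratios of 0.52 for Krt7, 0.55 for Krt8, 0.63 for Krt18 and 0.87 for Krt19. Pair A had -0.97, -0.46, -0.49 and 0.053, pair C had -0.78, -0.78, -0.86 and -0.20, and pair D had -0.93, -0.33, -0.15 and -0.60. The difference between pairs did not pass the test for any of the 4 genes, and pair, slide and animal age cannot be told apart for pairs A and B. Pairs C and D share a slide, and between them animal age, WT sex and the dye of the KO RNA cannot be told apart.

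Among the 4 basal keratins, 3 had a ratio above 0 and 1 was called higher. Of all 19921 genes, 9423 had a ratio above 0 and 3.51% were called higher. Krt17 is a type I keratin of basal and gland-surrounding cells and hair follicles that is made at higher levels in injured epithelium and in many carcinomas. Its ratio on replicates 1 to 12 was 1.26, -0.29, 0.84, 0.90, -0.11, 1.67, 0.98, 1.41, 0.91, 0.99, 0.20 and 0.19. It was higher in KO on 10 of 12 arrays, lower on replicates 2 and 5, and close to 0 on both arrays of pair D. The mean log2 signal was 10.04 ± 0.61 in KO and 9.30 ± 0.33 in WT RNA, a fitted ratio of 0.74 ± 0.19, or 1.67-fold (limma, adjusted p = 0.0387; 95% interval from 0.32 to 1.15).

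The direction of Krt17 held in each pair, at 0.68, 0.99, 1.04 and 0.10 in pairs A to D. Slide 1 holds pair A alone, slide 2 pair B alone and slide 3 pairs C and D, so the slides are no separate check. Fitted within slides, Krt17 was at 0.68, 0.99 and 0.57 (limma, adjusted p = 0.332, 0.196 and 0.114). The call was near its threshold. Leaving out any 1 of replicates 1, 3, 4, 6, 7, 8, 9, 10 and 12 ended it, with a ratio between 0.65 and 0.79 and an adjusted p between 0.0551 and 0.0766, and leaving out replicate 2, 5 or 11 kept it. It was also lost with median centring in place of loess (0.80, adjusted p = 0.0831) and with 1 mean per pair (0.70, adjusted p = 0.127).

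Krt5 and Krt14, the partners that define basal cells, were not called, and their difference from Krt17 was not tested. The ratio of Krt5 ranged from -0.21 to 0.12 with a median array of 0.016, higher on 6 arrays and lower on 6, at a mean log2 signal of 8.98 ± 0.35 in KO and 8.99 ± 0.36 in WT RNA. The fitted ratio was -0.014 ± 0.039 (limma, adjusted p = 0.882) and its 95% interval, from -0.098 to 0.07, was the tightest among the keratins given in full. Krt14 ranged from -0.19 to 0.78 with a median array of 0.23, higher on 8 arrays, at 8.78 ± 0.34 in KO and 8.55 ± 0.21 in WT RNA. Its fitted ratio came to 0.22 ± 0.089 (limma, adjusted p = 0.162), and the highest arrays were replicates 7 and 8 at 0.73 and 0.78. Krt15, a type I keratin of basal and stem cells, was at 0.073 ± 0.037 (limma, adjusted p = 0.268).

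Krt5 and Krt14 had the same sign on 6 of 12 arrays. The 5 airway basal cell markers listed were Krt5, Krt14 and Krt15 themselves, with Trp63 and Ngfr, so the list largely repeats the keratins above. None was called (7.44% of all genes were), and their median ratio was -0.0099. Their summed signal was 1469 to 2566 in KO and 1528 to 2141 in WT RNA. Trp63, the basal cell transcription factor, was at -0.34 ± 0.21 (limma, adjusted p = 0.372). The offset of 50 added in background correction draws the ratio of dim spots toward 0, which bears on Krt5 and Krt15 as well as on most squamous and hair keratins. With the scanner's own processed signals, which carry no such offset, and the other alternatives tried, Krt5 stayed between -0.095 and 0.098.

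The squamous group held 12 genes, of which 11 were tested and none was called. Their ratios ran from -0.16 to 0.22 with a median of -0.024, 3 above and 8 below 0, and 9 of the 11 lay within 0.1 of 0. Of the 11, 6 were well above background for both RNAs on all 12 arrays, against 14322 of 19921 genes. The wound-induced keratins Krt6a, Krt6b and Krt16, often followed beside Krt17, were at -0.059, -0.025 and -0.024, with all arrays of Krt16 between -0.11 and 0.13. The epidermal pair Krt1 and Krt10 was at -0.023 and 0.22 (limma, adjusted p = 0.681 and 0.239), and the second Krt10 probe at 0.012. Partners shared a sign on 6 of 12 arrays for Krt1 with Krt10, on 5 of 12 for Krt6a with Krt16 and on 5 of 11 for Krt4 with Krt13.

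Krt13 and Krt78 differed from the rest of the squamous group in their spread. Krt13, a type I keratin of layered linings that do not cornify, ranged from -1.28 on replicate 10 to 2.56 on replicate 6 around a fitted ratio of -0.058 ± 0.25, with an SD of 1.09 and a dye term of -0.67. It had the sign of Krt8 on 12 of 12 arrays and of Krt7, Krt18 and Krt19 on 11 each (0.924% of genes shared that of Krt18 on 11 or 12). With the dye term removed, it had the sign of Krt7 and Krt8 on 11 each, of Krt18 on 9 and of Krt19 on 8. The share of all genes was not computed for Krt7, Krt8 and Krt19. The second Krt13 probe, well above background on 7 arrays for each RNA, ranged only from -0.12 to 0.20 and shared the sign of the first on 7 arrays. The array pattern of Krt13 therefore rests on 1 probe. Krt78 ranged from -1.20 to 1.54 with an SD of 0.87. It was dim, at a mean log2 signal of 6.82 in KO and 6.97 in WT RNA, and well above background on 8 arrays for KO and 10 for WT RNA.

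Altogether 7 keratin genes had an SD over arrays of at least 0.8 (Krt7, Krt8, Krt13, Krt18, Krt19, Krt20 and Krt78), where 5.43% of all genes tested did. The 18 hair and hair follicle keratins were at the other end: none was called, their median SD was 0.14, and 13 of 18 lay within 0.1 of 0. Only 5 of the 18 were well above background for both RNAs on all 12 arrays. The offset draws dim ratios toward 0, so the small spread of this group does not show stable expression. Krt84 and Krt85, type II hair keratins, had the lowest unadjusted p of this group, at -0.26 ± 0.083 and -0.26 ± 0.099 (limma, adjusted p = 0.0832 and 0.137). Krt84 was lower in KO on 10 of 12 arrays, with a mean log2 signal of 8.84 ± 0.27 in KO and 9.10 ± 0.30 in WT RNA. Krt222, which belongs to none of the groups, was at -0.048.

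**Figure D4:**
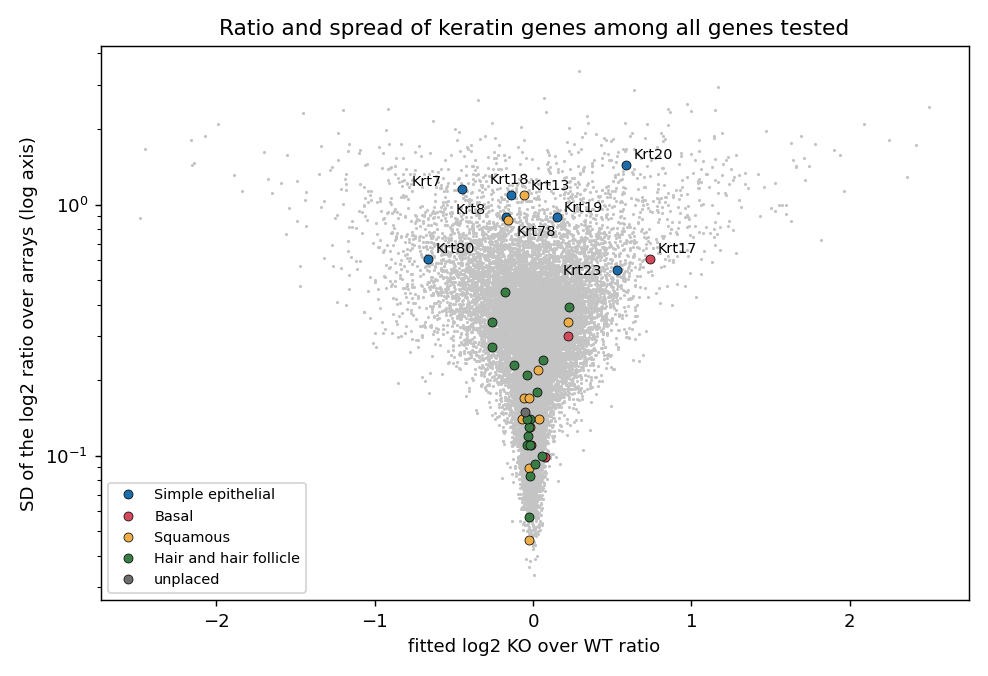
Fitted log2 KO over WT ratio (horizontal axis) and SD of the ratio over arrays (vertical, log axis) of the 41 keratin genes, coloured by group, among all 19921 genes tested (grey). Simple keratins have an SD of 0.55 to 1.44, while the hair keratins have an SD of 0.057 to 0.45 and ratios between -0.26 and 0.23.

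Genes whose products anchor or build on keratin filaments were set beside the family. Of 13 desmosome genes none was called (7.44% of all genes were). The smallest p values were those of Dsg2, the desmosomal cadherin of simple epithelia, at 0.97 ± 0.28 (limma, adjusted p = 0.0586) and of its relative Dsc2 at 0.64 ± 0.23 (adjusted p = 0.127). Leaving out replicate 2 brought both past the threshold, at 1.12 and 0.79 (adjusted p = 0.0343 and 0.0377). Dsg2 also passed without replicate 5 (1.04) and without replicate 11 (1.11). With the mean of its kept probes Dsg2 was at 0.44 (limma, adjusted p = 0.0837).

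Of 9 hemidesmosome genes, 1 rose and 2 fell (3.51% and 3.94% of all genes). Itgb4, the integrin subunit that ties keratins to the basement membrane, rose by 1.05 ± 0.23 (limma, adjusted p = 0.0211) and was higher on 11 of 12 arrays. The Itgb4 call was lost with median centring and with 1 mean per pair (limma, adjusted p = 0.0529 and 0.123). With the mean of its kept probes Itgb4 was at 0.72 (limma, adjusted p = 0.0129). Plec and Dst, which encode the linker proteins plectin and dystonin, fell by 0.45 ± 0.067 and by 0.56 ± 0.13 (limma, adjusted p = 0.00329 and 0.0287), on 10 and on 12 of 12 arrays. Both linkers also have forms outside epithelia, which these probes were not shown to tell apart. The dye term of Plec was -0.43, close in size to its ratio. The Plec call was lost without a dye term, with median centring and with 1 mean per pair (limma, adjusted p = 0.0941, 0.114 and 0.276). With the mean of its kept probes Dst was at -0.18 (limma, adjusted p = 0.0502) and in pairs A and B alone at -0.37. The call on Dst was also lost without replicate 3, 7, 9 or 12, at -0.57, -0.51, -0.49 and -0.49.

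Of 7 plakin and keratin-binding genes, 1 rose (3.51% of all genes). Evpl, which encodes the cornified envelope protein envoplakin, rose by 0.83 ± 0.18 (limma, adjusted p = 0.0226), on 11 of 12 arrays. Its call was lost without replicate 12 (0.81), with median centring and with 1 mean per pair (limma, adjusted p = 0.0513, 0.063 and 0.089). Of 20 genes of the cornified envelope and squamous differentiation, 16 were tested and 2 fell (3.94% of all genes). Ivl, the envelope precursor involucrin, fell by 1.19 ± 0.30 and Tgm1, the enzyme that cross-links it, by 1.18 ± 0.30 (limma, adjusted p = 0.0362 and 0.0382), on 11 and 10 of 12 arrays. Leaving out replicate 1, 2, 3, 4, 6, 7, 8, 9 or 12 ended the call on Ivl, with a ratio between -1.25 and -1.03. For Tgm1 replicates 1, 3, 4, 8, 9, 10 and 12 did so, with a ratio between -1.22 and -1.12. The dye terms of Ivl and Tgm1 were -0.80 and -0.59, and without a dye term both calls were lost (limma, adjusted p = 0.0831 and 0.0591). Ivl was dim, at a mean log2 signal of 6.98 in KO RNA, and well above background on 9 arrays for KO and 10 for WT RNA. Tgm1 stood at -1.99, -0.57, -2.09 and 0.075 in pairs A to D. The list's median was -0.024, and Flg, Sprr2a, Csta1 and Klk5 were not tested.

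Of 15 epithelial transcription factors tested, 1 fell (3.94% of all genes). Klf4, a factor of epithelial differentiation, fell by 0.63 ± 0.12 (limma, adjusted p = 0.0133) on 12 of 12 arrays. The Klf4 call was lost with median centring and with 1 mean per pair (limma, adjusted p = 0.112 and 0.082). Of 15 other intermediate filament genes tested, 1 fell (3.94% of all genes), the muscle gene Des, by 0.43 ± 0.099 (limma, adjusted p = 0.0268) on 11 of 12 arrays. Its call was lost without replicate 3 (-0.40), with median centring and with 1 mean per pair (limma, adjusted p = 0.0578, 0.0651 and 0.104). Vim, the filament gene of mesenchymal cells, was at -0.26 ± 0.13 (limma, adjusted p = 0.268). The median ratios of the desmosome, hemidesmosome, transcription factor and other filament lists were 0.024, -0.13, 0.0065 and -0.032, against -0.006 over all genes.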

How the data were processed

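Each array file held scanner intensity values (Feature Extraction 10.1.1.1, per the file headers): mean signals, local backgrounds and flags of both dyes, as deposited, with probe annotation on build mm7. The deposited series matrix held the authors' log2 ratio of each probe, and the submitters' processing notes name limma for it. Set against the scanner values, its columns were KO over WT with swapped arrays already turned (correlation 0.9925 to 0.999, column medians -0.0111 to 0.0077). How the authors centred them stays unknown.

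In R 4.3.3 with limma 3.58.1, mean signals were corrected with normexp (offset 50), after outlying local backgrounds were replaced by the median of that array and dye, and normalized by loess within arrays. Outlier spots (86 to 828 per array) were left out, and spots of a probe were averaged. The brightest kept probe stood for its gene. Of 41174 probes, 22951 were named through a RefSeq accession, 1094 through another probe, 10664 kept the file's name and 6465 had none. The model had a KO over WT term, a dye term and a random block for the pair (0.077 consensus correlation on ratios turned to KO over WT). P-values were adjusted over all 19921 genes (Benjamini-Hochberg), and the limma adjusted p had to be under 0.05. The number of arrays limits the precision.

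On data simulated for this comparison over 19921 genes, with 200 changed, the model recovered 66% of log2 changes of 0.5 and 93% of those of 1. Of its 180 calls, 21 were false, and the consensus correlation came out as 0.017 where 0.077 was put in, so adjusted p-values near the threshold are somewhat too small. The changed genes were drawn at random over all genes tested, whose median SD was 0.29. The recovery rates therefore do not carry over to the simple keratins, whose median SD was 0.89.

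Keratins given in full were Krt5, Krt14, Krt19, Krt7, Krt8 and Krt18 and each with an adjusted p under 0.05, 1 sign on 11 or more arrays or an absolute log2 ratio of at least 0.5. Of each partner list, up to 4 called members of smallest p were named, or the 2 of smallest p. Krt13, Krt78, Trp63, Vim and other keratins named with single values fell outside that rule and were chosen after their values were seen. Members, groups and lists were chosen with earlier results of these data known. Alternatives covered background, normalization, filter, probes per gene, dye term, block, pairs, slides and single arrays.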

Additional observations from a re-analysis of the deposited data

How the results depend on the processing

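The 19 alternatives other than leaving out single arrays all reuse the same arrays and are not separate evidence. Krt17 was above 0 in all 19 and called in 11. It was lost with median centring (0.80), with 1 mean per pair (0.70), in pairs A and B alone (0.83), without pair A (0.77) or C (0.70), and within slides 1, 2 and 3 (0.68, 0.99 and 0.57). The number of keratin genes called was 2 with the scanner's processed signals and with the filter at 12 of 12 arrays (Krt17 and Krt80), and 3 with no block or with slide as block (Krt17, Krt23 and Krt80). It was 2 without pair B (Krt17 and Krt80) and without pair D (Krt17 and Krt23), 0 with median centring, 1 mean per pair, without pair A, without pair C and within slide 1, 2 or 3, and 0 to 2 when single arrays were left out.

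Genes called in all were 1483 in the model as described, 363 with median centring, 49 with 1 mean per pair, 876 in pairs A and B alone, and 390, 893, 825 and 969 without pair A, B, C and D. They were 0, 1 and 0 within slides 1, 2 and 3 (3148, 3110 and 3156 at an unadjusted limma p under 0.05), where 4 arrays leave few degrees of freedom. Leaving out single arrays gave 790 to 1824, with counts more than 1.5 times lower without replicate 3 (790), 7 (939), 9 (978) or 12 (792). With local backgrounds as deposited, 764 genes were higher and 524 lower, against 699 and 784. Genes called between pairs were 68, and 164 with median centring.

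Some ratios changed sign, none of them called. Slide 2 holds pair B alone, so the values within it are those of that pair. Krt5 became 0.012 with backgrounds as deposited, 0.04 with median centring, 0.033 in pairs A and B alone, 0.027 without pair D and 0.098 within slide 2. Krt8 became 0.048 in pairs A and B alone and 0.55 within slide 2. Krt18 became 0.069 in pairs A and B alone, 0.032 without pair A, 0.028 without pair C and 0.63 within slide 2. Krt19 became -0.18 without pair B and -0.40 within slide 3, and Krt7 became 0.52 within slide 2. The cause was not tested. Leaving out single arrays moved Krt5 between -0.027 and 0.0033, Krt19 between -0.0048 and 0.26, Krt18 between -0.35 and 0.03, Krt8 between -0.30 (without replicate 5 or 6) and -0.07 (without replicate 12), and Krt7 between -0.63 and -0.29 (without replicate 12). Krt7 was -0.22 in pairs A and B alone, -0.20 without pair A and -0.91 without pair B. Krt20 and Krt80 had no value within slide 3 because of a missing spot.

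For Dnmt3a and the 10 named partner genes, alternatives were added after seeing the data. None changed sign. Dst ranged from -0.89 to -0.18 and Dsg2 from 0.44 to 1.31, Tgm1 from -1.99 to -0.57 and Evpl from 0.37 to 1.05. Des was at -0.74 with processed signals and Dnmt3a at -0.34 with the mean of the kept probes. Of 31 settings, calls held in 25 for Plec, 24 for Itgb4 and Klf4, 22 for Des, 21 for Evpl, 19 for Dnmt3a, 16 for Dst and 14 for Tgm1, and in 11 of 30 for Ivl. The pairing of KO with WT lies within each array, which sets 1 KO against 1 WT RNA, and the replicate numbers join no further samples.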

Other observations

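Some keratin probes carried other names in the array files and stood outside the family as chosen. The probe now assigned to Krt79 ranged from -1.92 to 3.13 in log2 ratio around a fitted value of -0.25 ± 0.44 and was well above background for both RNAs on 12 of 12 arrays, a spread like that of the simple keratins. The probe for the hair keratin Krt86 was at -0.15 ± 0.079 (limma, adjusted p over probes = 0.322). Krt88 and Krt90 were at -0.014 ± 0.038 and -0.054 ± 0.047.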
